A study of Mus musculus with 12 samples.

Results

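The 9 genes Ghr, Stat5a, Stat5b, Socs2, Cish, Igf1, Igfals, Bcl6, and Cux2 carry or answer the growth hormone signal in liver, and they were taken by their symbols from the 24421 genes counted in each library. All 9 were present in the count files. The study sequenced the RNA of 6 liver tumors, each with a piece of non-tumoral liver of its own mouse. The 4 p21+/Tert mice express Tert from 1 Cdkn1a (p21) allele, and the 2 p21+/TertCi mice express from it a catalytically inactive Tert. The Cdkn1a promoter is active in any cell that turns on p21, not in hepatocytes alone, and every non-tumoral liver carried the same allele as the tumor beside it. All mice were aged animals on a standard diet, and no wild-type liver is among the libraries. The carcinomas (HCC) of p21+/Tert mice are T-HCC941, T-HCC663, and T-HCC662, and their adenoma (HCA) is T-HCA992. Those of the p21+/TertCi mice are the carcinoma TCi-HCC981 and the adenoma TCi-HCA984. L with the same number stands for the liver of that mouse, so that L663 is the liver beside T-HCC663. L662 was assigned to T-HCC662 by elimination, since its label bears another number, and the paper's pathology list gives the tumor of L663 as an adenoma despite its name. By the mutations described for them in the paper, T-HCC662 and T-HCC663 are Ctnnb1-mutated, T-HCC941 carries an Egfr and TCi-HCC981 an Hras mutation, and T-HCA992 and TCi-HCA984 carry none of these.

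Growth hormone from the pituitary binds its receptor Ghr on hepatocytes, the receptor-bound kinase Jak2 is activated, and the transcription factors Stat5a and Stat5b are phosphorylated and enter the nucleus. There they induce Igf1 and Igfals, whose proteins leave the liver as an endocrine complex, and Cish and Socs2, which restrain the receptor. The hormone is secreted in sharp pulses in male rodents and more evenly in females. Stat5b reads these patterns and sets the male-biased and female-biased programs of liver, with Bcl6 as a repressor more abundant in males and Cux2 as one found in female liver.

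Between 14571716 and 26170661 reads per library were assigned to genes. Levels are given as CPM, reads per 1000000 reads of the library size scaled by the trimmed mean of M values. The sex is not in the labels. Ddx3y, from the Y chromosome, was between 36.3 and 88.6 CPM in all 12 libraries, and Xist, transcribed from the inactive X, was at most 1.46 CPM, which is the pattern of male tissue. Axin2 and Glul, targets of β-catenin, were at 72.9 to 81.2 and 9494 to 10316 CPM in the 2 Ctnnb1-mutated tumors, at 9.86 to 13.9 and 1092 to 1830 CPM in the livers, and at 1.46 to 4.15 and 140 to 439 CPM in the other 4 tumors. The liver L981 stood apart from the other 5. Its summed level of 7 macrophage markers was 1351 CPM, the highest of the livers, and it also had the highest Cux2, described below. Because the RNA is from bulk tissue, fewer cells of a type and less RNA per cell cannot be told apart in any of these values.

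The sequences below show where the members carry the letters that Stat5 dimers prefer. The motif searched was TTCNNNGAA, which reads the same on both strands, in RefSeq windows from 250 bases before to 50 bases after each annotated start (GRCm38.p6). There were 15 windows for 8 of the members and none for Socs2. The motif was in 5 of the 15, and in 8.3% of all 32851 windows. It occurred in 1 window of Cish, in 2 of 3 windows of Igfals, and in both windows of Bcl6, and none of the windows of Ghr, Stat5a, Stat5b, Igf1, or Cux2 held these letters. The Cish window and 1 Bcl6 window held 2 or more copies, as did 0.457% of all windows. Each line gives 30 bases around a match, 5′ to 3′ on the gene's strand, with the motif in capitals. They are shown because Igfals fell in the tumors while Cish and Bcl6 did not pass the test.
Cish, chr9:107296649-107296678, plus strand: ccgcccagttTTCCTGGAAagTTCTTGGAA
Igfals, chr17:24877598-24877627, plus strand: gatctataatTTCTCAGAAaagaggctgag
Igfals, chr17:24878163-24878192, plus strand: ctgccaggtgTTCCTAGAAgaggccctggg
Bcl6, chr16:23981432-23981461, minus strand: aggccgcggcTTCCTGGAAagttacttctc
Bcl6, chr16:23988951-23988980, minus strand: agcaaattagTTCTCAGAAttccagaggcc
The copies in Cish began 0 and 11 bases after the annotated start, those in Igfals 236 and 58 bases before 2 different starts, and the Bcl6 window with 3 copies had them at 168, 122, and 88 bases before its start. A match to these letters is a description of the sequence, and binding was not measured.

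Per kilobase of exon, the members of the endocrine axis were the most abundant in the non-tumoral livers. Igf1 had 73.6 ± 13.0 CPM per kb, Ghr 57.0 ± 12.0, Igfals 48.9 ± 7.76, and Stat5b 13.0 ± 2.33 (mean ± SD, n = 6). Bcl6 had 7.16 ± 6.06 CPM per kb, Cish 4.96 ± 3.74, Stat5a 3.00 ± 0.790, Socs2 2.50 ± 1.99, and Cux2 0.162 ± 0.259 (mean ± SD, n = 6). In this order the ranges of neighbouring genes overlapped, except those of Igfals over Stat5b and of Socs2 over Cux2. The lengths are of all annotated exons merged, so a gene with long exons that liver does not use is underestimated on this scale.

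**Figure D1:**
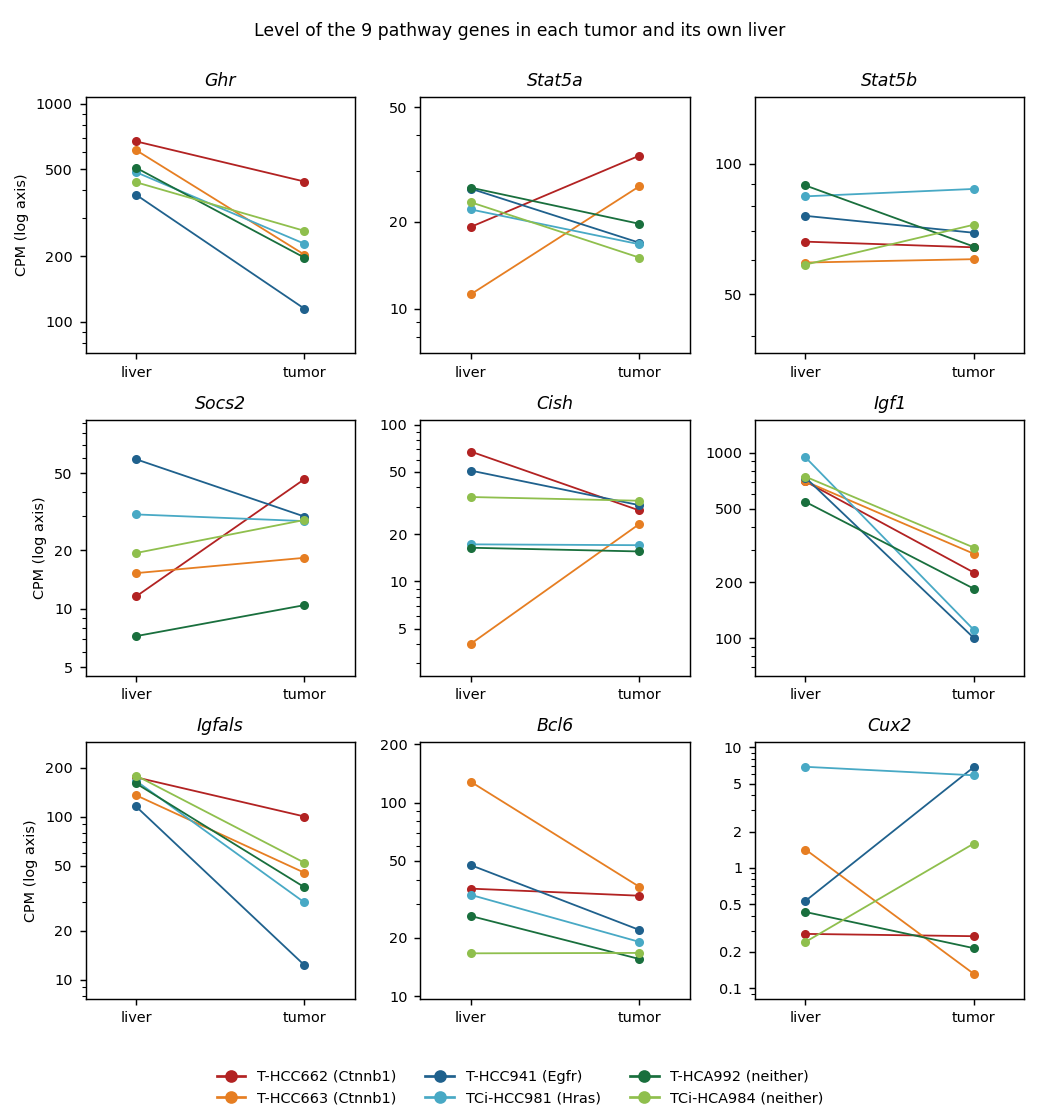
Level of each of the 9 genes in CPM (log axis) in the non-tumoral liver and the tumor of each mouse, joined by a line and colored by mouse, with the mutated driver gene in brackets ("neither" is a tumor without a Ctnnb1, Egfr, or Hras mutation). Ghr, Igf1, and Igfals fall in all 6 mice, and for Stat5a the lines of the 2 Ctnnb1-mutated tumors rise while the other 4 fall.

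Of the 8 members that passed the filter on low counts in the comparison of all tumors with all livers, 3 fell and none rose. These were Ghr, Igf1, and Igfals. Of all 13822 genes tested there, 3.91% were called lower and 6.77% higher (edgeR's quasi-likelihood test, Benjamini-Hochberg adjusted p under 0.05). The median log2 fold change of the 8 genes was -0.70, against 0.01 over all genes tested. Cux2 was below the filter and was not tested in this comparison. Set against its own liver, the tumor was lower in 41 of the 54 pairs of a member and a mouse, where 49.4% to 50.7% of all genes were lower in each tumor.

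Ghr (ENSMUSG00000055737, chr15:3317760-3583492, minus strand), the growth hormone receptor, was lower in the tumor of every mouse. The livers had 672 (L662), 613 (L663), 382 (L941), 485 (L981), 508 (L992), and 436 CPM (L984), and the tumors in the same order 439.5, 203, 115, 228, 197, and 261 CPM. The groups overlapped only through T-HCC662, whose 439.5 CPM was above L941 and L984. T-HCC662 kept 65.4% of the level of its own liver, TCi-HCA984 59.8%, and the other 4 tumors less than 50%. A level lower in the tumor of all 6 mice was found for Ghr, Igf1, and Igfals of the 9 members, as for 11.5% of all genes tested. The fit gave -1.11 ± 0.28 (SE, adjusted p = 0.0262, edgeR). This call ended when L662 (adjusted p = 0.0698), L663 (0.0582), L992 (0.0504), T-HCA992 (0.058), or TCi-HCC981 (0.051) was left out, and without both L981 and TCi-HCC981 (adjusted p = 0.0671). Among the 4 HCC and their livers the adjusted p was 0.158, while the fold change stayed at -1.11 in both of these last fits. The paper describes gains on chromosome 15 in T-HCC662 and TCi-HCC981, and in its discussion also in T-HCC663. Copy number at Ghr itself was not tested here. The median difference of the other 540 genes on chromosome 15 from the own liver was 0.54 in T-HCC662 and 0.38 in TCi-HCC981 on the log2(CPM + 1) scale, and 0.04 to 0.21 in the other 4 tumors.

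Igf1 (chr10:87858265-87937042, plus strand) encodes the hormone through which liver carries much of the growth effect. It had the largest fall of the 8 members tested in the comparison of all tumors. Its livers had 702 (L662), 702 (L663), 736 (L941), 947 (L981), 544 (L992), and 744 CPM (L984). The tumors in the same order had 226, 285, 100.1, 111, 185, and 308 CPM. Every tumor was below every liver, and the 2 tumors with an Egfr or Hras mutation were the lowest. They kept 13.6% (T-HCC941) and 11.7% (TCi-HCC981) of the level of their own liver, and the other 4 kept 32.2% to 41.4%. It fell by 1.86 ± 0.30 (log2 fold change with SE, adjusted p = 0.00274, edgeR), and the call held with each of the 12 libraries left out in turn.

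Igfals (chr17:24865997-24882010, plus strand) encodes the acid-labile subunit that holds Igf1 and its binding protein in the circulating complex. The livers had 174 (L662), 135 (L663), 116 (L941), 166 (L981), 160.0 (L992), and 179 CPM (L984), and the tumors 100.3, 45.4, 12.3, 29.8, 37.0, and 52.3 CPM. Again no tumor reached the lowest liver, and T-HCC662 was the nearest. Its change was -1.76 ± 0.37 (log2, SE, adjusted p = 0.0104, edgeR). It was -1.64 with an adjusted p of 0.125 among the 4 HCC and their livers. Igf1 and Igfals were thus the 2 of 9 members with all tumors under all livers, a pattern of 2.18% of the genes tested.

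**Figure D2:**
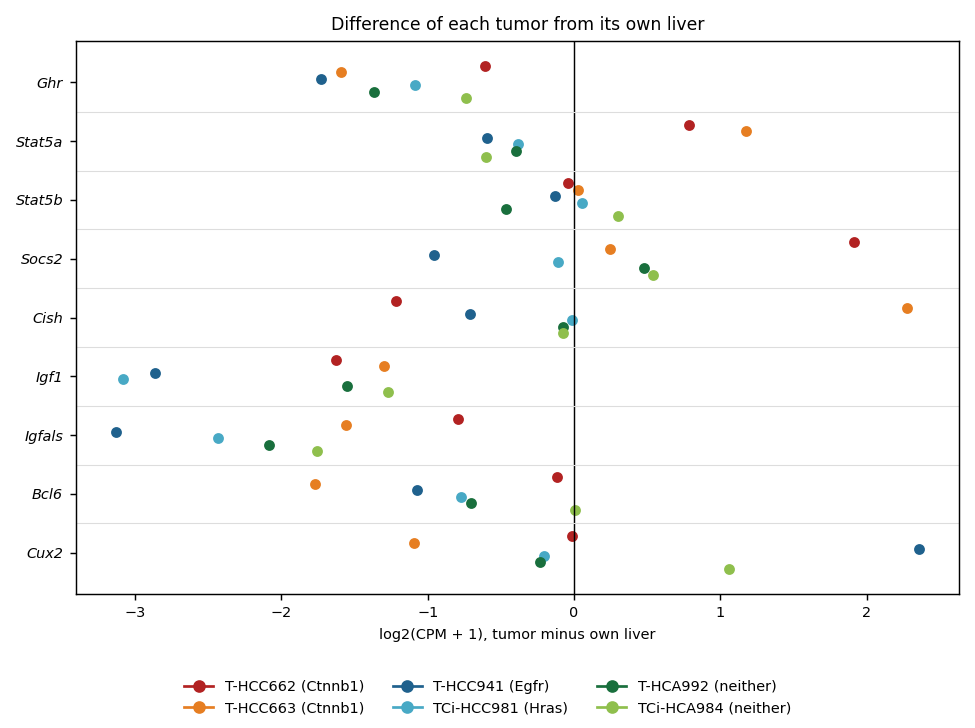
Difference of log2(CPM + 1) between each tumor and its own non-tumoral liver for the 9 genes, with 1 point per tumor colored by mouse and the driver gene in brackets. All points of Ghr, Igf1, and Igfals lie left of 0, with TCi-HCC981 at -3.08 for Igf1 and T-HCC941 at -3.13 for Igfals, and those of Stat5b lie between -0.46 and 0.30.

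The transducers did not move together. Stat5b (chr11:100780731-100850724, minus strand), the form of Stat5 that predominates in liver, had 58.6 to 89.1 CPM in the livers (median 71.0) and 60.3 to 87.5 CPM in the tumors (median 66.9). They differed by -0.06 ± 0.15 (log2, SE, adjusted p = 0.848, edgeR), and 3 of 6 tumors were lower than their own liver. Stat5a (chr11:100859351-100885169, plus strand), its neighbor on the chromosome, had 19.2 (L662), 11.2 (L663), 26.1 (L941), 22.1 (L981), 26.3 (L992), and 23.4 CPM (L984) in the livers, and 33.9, 26.6, 17.0, 16.7, 19.7, and 15.1 CPM in the tumors. Both Ctnnb1-mutated tumors were above all livers, and all 4 other tumors were below their own liver. Over all 6 tumors these directions cancelled, and the change was -0.01 ± 0.24 (log2 with its SE, adjusted p = 0.993, edgeR).

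Between the tumor classes, Stat5a differed by 0.81 ± 0.29 (log2, Ctnnb1-mutated over other tumors, SE) with an adjusted p of 0.0898, above the threshold. A fit with each mouse as a block sets each tumor against its own liver, and there the difference was 1.55 (adjusted p = 0.0349, edgeR), where 1.44% of genes were called higher and 1.46% lower. The same fit gave 1.01 for the Ctnnb1-mutated tumors over livers (adjusted p = 0.0465) and -0.54 for the other tumors (adjusted p = 0.049), with a background of 3.02% called higher and 2.58% lower in the former and 10.5% and 10.2% in the latter. For both, the fit without the block gave 0.47 (0.334) and -0.34 (0.309). The block pairs L662 by elimination, and T-HCC662 and T-HCC663 resembled another liver more than their own (r of deviations from the group means 0.169 against 0.197, and 0.0394 against 0.218). The class difference was also called without L663, the liver with the lowest Stat5a, at 0.81 and an adjusted p of 0.0337. Stretches of 50 bases shared with Stat5b made up 8.52% of the Stat5a transcripts, so that this part of the reads could not be placed in 1 of the pair with certainty.

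The feedback genes varied more among the livers than between livers and tumors. Socs2 (chr10:95385362-95417180, minus strand), a ubiquitin ligase adaptor that removes the receptor, had 11.6 (L662), 15.3 (L663), 58.9 (L941), 30.6 (L981), 7.25 (L992), and 19.4 CPM (L984) in the livers and 46.5, 18.3, 29.9, 28.3, 10.5, and 28.7 CPM in the tumors. The livers spanned the whole range of the tumors, and 4 of 6 tumors were above their own liver. This came to 0.17 ± 0.47 (log2, SE, adjusted p = 0.86, edgeR). Cish (chr9:107296026-107302784, plus strand), which binds the activated receptor, had 67.5 (L662), 4.00 (L663), 51.0 (L941), 17.3 (L981), 16.4 (L992), and 34.6 CPM (L984) in the livers. The tumors had 28.4, 23.2, 30.7, 17.1, 15.6, and 32.8 CPM, a narrower range that lay inside that of the livers. TCi-HCC981, T-HCA992, and TCi-HCA984 had 94.7% to 98.8% of the Cish of their own livers. The fit gave -0.38 ± 0.50 (log2, SE, adjusted p = 0.671, edgeR). Parts of Socs2 and Cish (4.58% and 9.35% of their 50-base stretches) are shared with other annotated genes.

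Of the sex-pattern repressors, Bcl6 (chr16:23965052-23988852, minus strand) had 36.0 (L662), 128 (L663), 47.6 (L941), 33.4 (L981), 26.0 (L992), and 16.7 CPM (L984) in the livers and 33.1, 36.8, 22, 19.1, 15.6, and 16.8 CPM in the tumors. The groups overlapped, and the tumor was lower in 5 of 6 mice. L663 held both the highest Bcl6 and the lowest Cish of the 6 livers. The change of -1.01 ± 0.43 (log2, SE, adjusted p = 0.154, edgeR) did not pass. In the 4 tumors without a Ctnnb1 mutation it was -1.40 ± 0.48 (adjusted p = 0.0544). It was called there without L992 (-1.51, adjusted p = 0.0498) and without L984 (-1.58, 0.0239), the livers with the lowest Bcl6, and shrank to -0.83 (0.0528) without L663.

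Cux2 (chr5:121856366-122050102, minus strand) was near the limit of detection in most libraries. It had 4, 22, 7, 8, and 5 reads in L662, L663, L941, L992, and L984 (0.283, 1.42, 0.531, 0.429, and 0.242 CPM), and 164 reads (6.89 CPM) in L981. In the tumors of the same mice, with that of L981 last, it had 6, 3, 127, 6, 28, and 114 reads (0.270, 0.131, 6.86, 0.215, 1.59, and 5.86 CPM). The level was thus high in the 2 tumors with an Egfr or Hras mutation and in 1 liver, and in 1 mouse, that of L981 and TCi-HCC981, both tissues had it. The Ctnnb1-mutated tumors differed from the other tumors by -3.53 ± 1.57 on the log2 scale, with an adjusted p of 0.155, and in the 4 other tumors against livers the change was 0.50 ± 0.93 (adjusted p = 0.74). Without L981 these became -3.53 (adjusted p = 0.0463) and 2.02 (0.0466), and without TCi-HCA984 the latter was -0.51 (0.781). The paper describes gains on chromosome 5 in T-HCC941 and TCi-HCC981. The median difference of the other 843 genes of chromosome 5 from the own liver was 0.20 in T-HCC941 and -0.17 in TCi-HCC981. Copy number at Cux2 itself was not tested here.

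**Figure D3:**
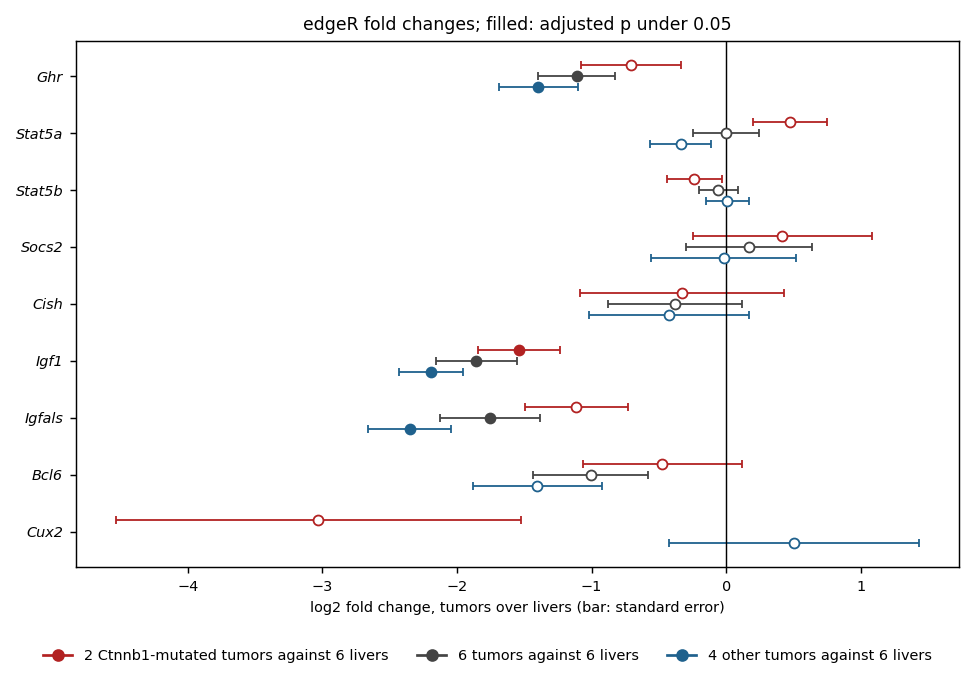
Log2 fold changes of the 9 genes from edgeR with their standard errors for all 6 tumors, the 2 Ctnnb1-mutated tumors, and the 4 other tumors, each against the 6 livers, with filled points for an adjusted p under 0.05. Igf1 is filled in all 3 comparisons, Ghr and Igfals in those of all tumors and of the other tumors, and Cux2 has no point for all tumors because it was below the filter.

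By driver class, the 3 genes that fell all passed the test in the tumors without a Ctnnb1 mutation. These 4 tumors were lower than the livers in Ghr by -1.40 ± 0.29 (log2, SE, adjusted p = 0.00657), in Igf1 by -2.19 ± 0.24 (adjusted p = 0.00019), and in Igfals by -2.35 ± 0.31 (adjusted p = 0.000495, edgeR). All 3 calls held with each of the 12 libraries left out in turn. These were 3 of 9 members tested, where 11.5% of 15182 genes were called lower and 11.3% higher. In the 2 Ctnnb1-mutated tumors edgeR called only Igf1, 1 of 9 members where 3.2% of genes were called lower and 5% higher. It fell by 1.54 (SE 0.30, adjusted p = 0.0112), and the call ended without T-HCC662 (adjusted p = 0.11) or T-HCC663 (0.0509). Ghr had -0.71 ± 0.37 (adjusted p = 0.276) and Igfals -1.11 ± 0.38 (adjusted p = 0.0983, edgeR) in these tumors. DESeq2 called 2 members lower than the livers in the Ctnnb1-mutated tumors and 4 in the other tumors. Of 15182 genes it called 1075 and 2222 lower.

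The difference between the classes was tested directly. Both Ctnnb1-mutated tumors came from p21+/Tert mice, so that driver class and genotype are not balanced in this test. Igfals was the only member called by edgeR, 1.24 ± 0.36 higher in the Ctnnb1-mutated than in the other tumors (adjusted p = 0.0465), where 6.76% of genes were called higher and 5.72% lower. That call rested on T-HCC662, since without it the difference was 0.55 (adjusted p = 0.479). In the fit with the mouse block it was 1.21 (adjusted p = 0.126). Of the 12 fits with 1 library left out, 3 kept the call. DESeq2 called Igfals (1.23, adjusted p = 0.0162) and, in the opposite direction, Cux2 (-3.58, 0.0329). Of 15182 genes it called 1460 higher and 1651 lower. Ghr differed by 0.69 ± 0.37 (adjusted p = 0.232) and Igf1 by 0.65 ± 0.28 (adjusted p = 0.147), so the larger falls outside the Ctnnb1 class were not shown to differ from those within it. The summed level of 9 hepatocyte markers was 19283 to 35442 CPM in the Ctnnb1-mutated tumors and 37078 to 57646 CPM in the livers. In the other tumors it was 80583 to 103666 CPM. Alb weighs most in this sum, with a median of 21240 CPM in the livers and 54627 CPM in the tumors. All 9 markers were below the own liver in both Ctnnb1-mutated tumors. In T-HCC941, TCi-HCC981, T-HCA992, and TCi-HCA984, 5, 4, 5, and 6 of the 9 were below it. The part of these markers in the class differences was not tested.

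Among the tumors without a Ctnnb1 mutation, those with an Egfr or Hras mutation were lower in Igf1 by -1.26 ± 0.34 (log2, SE) and in Igfals by -1.11 ± 0.44, with adjusted p of 0.46 and 0.542 (edgeR). The tumors with an Egfr or Hras mutation are both carcinomas, and those with neither are both adenomas. Driver and tumor type thus cannot be told apart here. No gene of 15182 passed this comparison in edgeR (0% in each direction), 1331 had an unadjusted p under 0.05, and DESeq2 called 105, among them Igf1 (-1.22, adjusted p = 0.0249). The change from liver to tumor did not differ detectably between the genotypes for any member, with adjusted p of 0.9999 for each. In that comparison, too, edgeR called no gene (0%), 556 had an unadjusted p under 0.05, and DESeq2 called 10. The estimates had wide errors, with 0.28 ± 0.64 for Ghr, -0.25 ± 0.65 for Igf1, and -0.48 ± 0.83 for Igfals (p21+/TertCi minus p21+/Tert, SE), since the p21+/TertCi group had 2 mice.

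Of 23 partners of the pathway (kinases, adaptors, phosphatases, and related receptors and transcription factors), edgeR called 1 higher and none lower in the comparison of all tumors, and their median log2 fold change was -0.04. Of all genes tested there, 6.77% were called higher and 3.91% lower. DESeq2 called 1 higher and 1 lower (Prlr), and of all 13822 genes 1453 higher and 954 lower. The fit with the mouse block called 1 higher and 2 lower, among the latter the adaptor Sh2b1 (-0.43, adjusted p = 0.0293). Of all 13822 genes the block fit called 1194 higher and 1008 lower. The gene called by edgeR was Lepr, the leptin receptor, with 0.989 to 9.58 CPM in the livers (median 2.26) and 1.67 to 72.3 CPM in the tumors (median 23.3). Its change of 2.88 ± 0.86 (adjusted p = 0.0494, edgeR) lay at the threshold, and it was not called in the block fit (2.32, adjusted p = 0.0529), or without both L981 and TCi-HCC981 (3.30, 0.0559). It was also lost without L662, L663, L941, L992, L984, T-HCC941, T-HCA992, TCi-HCC981, or TCi-HCA984, with an adjusted p of at most 0.117. Jak2, the kinase bound to the receptor, had 11.3 and 14.2 CPM in the Ctnnb1-mutated tumors, 22.8 to 31.6 CPM in the other 4, and 12.0 to 18.8 CPM in the livers. The 4 tumors lay above all 6 livers, by 0.77 ± 0.17 (log2, SE, adjusted p = 0.00789). Prlr, the related prolactin receptor, was lower in 5 of 6 mice, with 90.4 to 319 CPM in the livers (median 176) and 21.8 to 130 CPM in the tumors (median 73.0), and its -1.24 ± 0.43 did not pass (adjusted p = 0.0839). It was called without T-HCC662, the 1 tumor above its own liver (-1.47, adjusted p = 0.0432).

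Between the classes, 1 partner was higher and 5 were lower in the Ctnnb1-mutated tumors. Of all genes tested there, 6.76% were called higher and 5.72% lower. Irs1, the insulin receptor substrate, was higher by 1.13 ± 0.19 (log2, SE, adjusted p = 0.0043). Egfr was lower by -2.45 ± 0.52 (adjusted p = 0.0147), Jak2 by -1.04 ± 0.24 (adjusted p = 0.0189), and Lepr by -3.90 ± 0.98 (adjusted p = 0.027, edgeR), and Shc1 and Stat3 completed the 5. Egfr, whose liver expression depends on growth hormone, had 50.7 and 48.8 CPM in T-HCC662 and T-HCC663 and 144 to 379 CPM in the livers, and 610 CPM in T-HCA992, the highest of all. None of the 23 partners was called between the classes in the fit with the mouse block (Irs1 1.35, adjusted p = 0.051, Egfr -2.24, 0.194, and Jak2 -1.10, 0.0822). Without T-HCC662 the adjusted p was 0.103 for Egfr, 0.145 for Jak2, and 0.118 for Lepr, without T-HCC663 0.0827, 0.056, and 0.146, without TCi-HCC981 0.0509 for Jak2, and without TCi-HCA984 0.0545 for Lepr. Onecut1, a hepatocyte factor induced by growth hormone, had 1.42 to 18.4 CPM in the livers and 0.668 to 10.9 CPM in the tumors (log2 fold change -0.86 ± 0.73, adjusted p = 0.501).

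Of 15 other genes of the IGF axis, 11 were tested against livers, and edgeR called 2 higher and none lower. Of all genes it called 6.77% higher and 3.91% lower. The median log2 fold change of the 11 was 0.40. DESeq2 also called Igfbp5 lower (-1.58, adjusted p = 0.0456), as it did 954 of 13822 genes. Igfbp4, the most abundant of the list, had 1497 to 2851 CPM in the livers and 1077 to 2201 CPM in the tumors and was lower in all 6 mice, and its -0.62 ± 0.29 did not pass (adjusted p = 0.194). In the 4 other tumors against livers DESeq2 called both Igfbp4 (-0.71, adjusted p = 0.0379) and Igfbp5 (-1.43, 0.037) lower. Of 15182 genes it called 2222 lower there. Igf2, the fetal growth factor, had 0.194 to 1.13 CPM in the livers. The tumors had 4.55 (T-HCC662), 1.01 (T-HCC663), 688 (T-HCC941), 22.3 (TCi-HCC981), 20.9 (T-HCA992), and 1.08 CPM (TCi-HCA984). Every tumor was above its own liver, and T-HCC941 was above the next tumor by more than the whole range of the others. The increase was 7.74 ± 1.74 (log2, SE, adjusted p = 0.0138, edgeR). Without T-HCC941 it was 4.12 (adjusted p = 0.0154), in the block fit 4.72 (0.031), and among the 4 HCC 8.44 (0.0645). Igfbp3, which carries Igf1 together with the acid-labile subunit, had 6.83 to 38.1 CPM in the livers and 11.9 to 241 CPM in the tumors, and rose by 2.15 ± 0.61 (log2, SE, adjusted p = 0.0392). The block gave 1.86 (adjusted p = 0.159), and 9 of the 12 fits with 1 library left out did not call it. They were those without any 1 of the 6 livers, T-HCC941, T-HCA992, or TCi-HCA984, with an adjusted p of at most 0.0971.

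Igfbp1, a binding protein induced in fasting and stress, had 4.17 (L662), 16.6 (L663), 20.2 (L941), 64.6 (L981), 22 (L992), and 705 CPM (L984) in the livers. In the tumors it had 392, 145, 1301, 2449, 548, and 1412 CPM. It was higher in the tumor of all 6 mice, as were 11% of all genes tested, and only L984 reached the tumors. Its log2 fold change of 2.89 ± 1.15 did not pass the threshold (adjusted p = 0.129). The block gave 4.55 (adjusted p = 0.0108), and without L984 it was 5.36 (adjusted p = 0.00459). Igfbp2 had 108 to 482 CPM in the livers and 41.7 to 1010 CPM in the tumors (0.21 ± 0.70, adjusted p = 0.883), with T-HCC941 the highest. Stc1, whose protein blocks the release of Igf1 from its carriers, was at 0 reads in 5 livers and 0.0645 CPM in L663, and at 0.351 to 11.9 CPM in the tumors. It was below the filter in the comparison of all tumors and edgeR called it higher in both driver classes against livers. In the Ctnnb1-mutated tumors that call ended in the block fit (adjusted p = 0.0912) and without T-HCC662 (0.104).

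**Figure D4:**
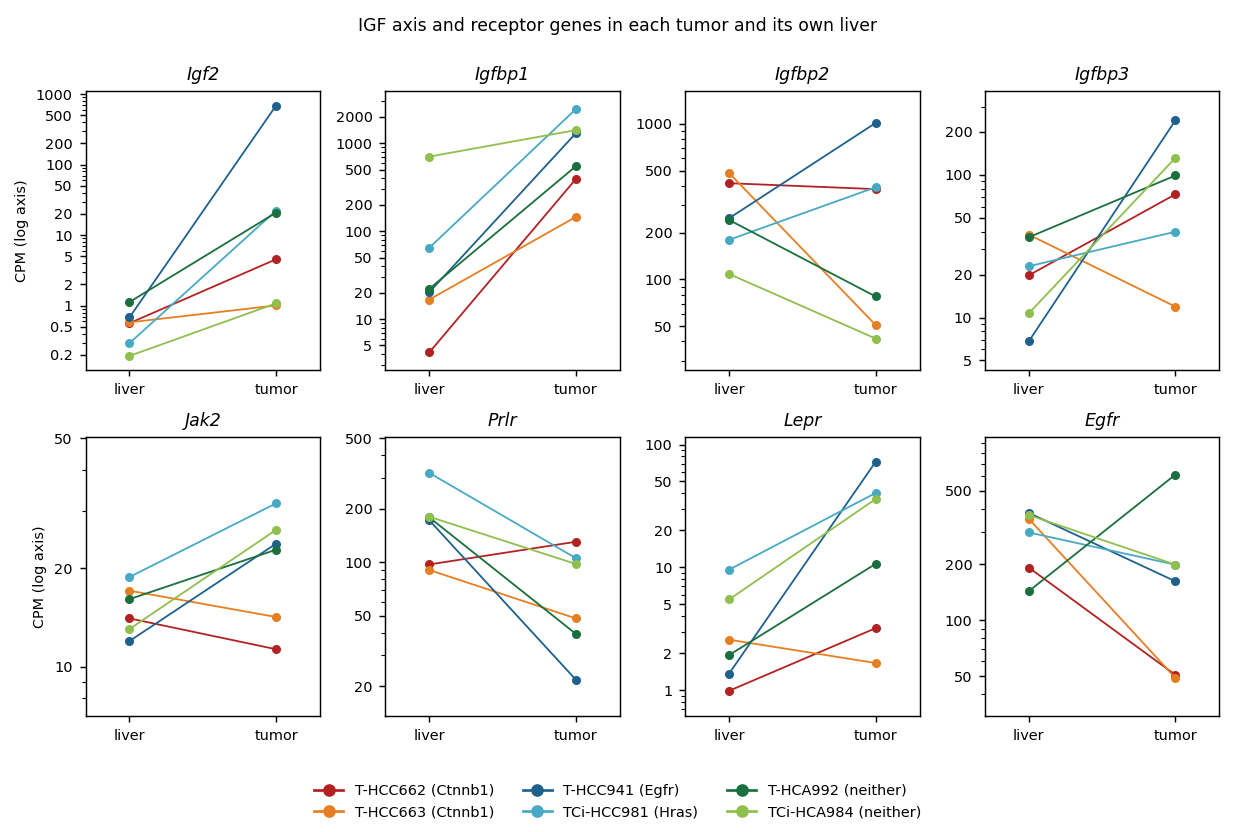
Level in CPM (log axis) of 4 genes of the IGF axis and 4 receptor or kinase genes in the liver and tumor of each mouse, joined by a line and colored by mouse, with the driver gene in brackets. Igf2 and Igfbp1 rise in all 6 mice, and Jak2 rises in the 4 tumors without a Ctnnb1 mutation.

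Male-biased liver genes, which need pulses of growth hormone and Stat5b, were low in the tumors. Of the 23 of 24 tested, 14 fell and none rose, where 3.91% of all genes fell and 6.77% rose. The median log2 fold change of the 23 was -3.10, against 0.01 over all genes tested. Without L981 and TCi-HCC981 the count was also 14, and among the 4 HCC it was 6. Of all 13822 genes, 341 and 212 fell in these 2 fits, against 540 in the main fit. In 8 of the 24 every tumor was below every liver, a pattern of 2.18% of all genes tested. Nudt7, a peroxisomal hydrolase, had 233 to 900 CPM in the livers (median 576) and 34.4 to 167 CPM in the tumors (median 91.1), and fell by 2.53 on the log2 scale (SE 0.45, adjusted p = 0.00428). Cyp7b1, an oxysterol hydroxylase, had 74.7 to 765 CPM in the livers and 5.95 to 57.1 CPM in the tumors (-3.42 ± 0.63, adjusted p = 0.00526). Slco1a1, an organic anion transporter, had 10.3 to 334 CPM in the livers and 2.83 to 9.89 CPM in the tumors (-4.15 ± 0.77, adjusted p = 0.00532). For these 3 genes the groups did not overlap, and the lowest Slco1a1 levels among the livers were in the 2 p21+/TertCi mice, with 16.6 (L981) and 10.3 CPM (L984). The whole list was low in these livers. Its summed level was 3055 CPM in L981 and 5158 CPM in L984, against 33954 (L662), 30301 (L663), 20879 (L941), and 8689 CPM (L992), and 1347 to 6235 CPM in the tumors. By this sum TCi-HCC981, with 6235 CPM, was above its own liver, although 20 of the 24 genes were below it. Of the list, Mup20 and Serpina1e had the highest medians and so weigh much in the sum. These were 3446 and 4750 CPM in the livers and 573 and 1182 CPM in the tumors.

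By tumor, the median difference of the 24 male-biased genes from the own liver was -4.56 and -3.46 in the Ctnnb1-mutated T-HCC662 and T-HCC663, -3.22 in T-HCC941, -2.16 in TCi-HCC981, -2.70 in T-HCA992, and -1.14 in TCi-HCA984 (log2(CPM + 1)). T-HCC662, with the most Ghr and Igfals left of the 6 tumors, had the lowest of these differences. Its liver had the highest level of the list, with a median of 321 CPM over the 24 genes, against 16.7 CPM in L984. In the tumors that median level was 16.1 (T-HCC662), 18.1 (T-HCC663), 9.7 (T-HCC941), 4.1 (TCi-HCC981), 7.1 (T-HCA992), and 15.8 CPM (TCi-HCA984). By summed level T-HCC662 was the lowest tumor, with 1347 CPM. Against livers, 6 of 24 male-biased genes were called lower in the Ctnnb1-mutated tumors and 12 in the fit with the mouse block, and 17 in the other 4 tumors. Of all genes, 3.2%, 2.58%, and 11.5% were called lower in the same fits, in that order. Between the classes, Cyp4a12b and Cyp4a12a, which share long stretches of sequence and cannot be counted apart with certainty, were higher in the Ctnnb1-mutated tumors by 6.04 ± 0.73 and 3.84 ± 0.69 (log2, SE, adjusted p = 0.000743 and 0.00691). Cyp4a12b was at 159 and 162 CPM in these 2 tumors, at 14.8 to 74.8 CPM in the livers, and at 0.873 to 4.54 CPM in the other 4. In the block fit Cyp4a12a was not called (2.95, adjusted p = 0.153). Cyp2u1, Mup21, and Serpina1e were lower, and none of the 3 was called without T-HCC662 (adjusted p = 0.1, 0.163, and 0.223). Mup21 was also lost in the block fit (0.0807) and without L662, L663, L941, L992, or any 1 of the other tumors (at most 0.223), and Serpina1e without L941, any 1 of the other tumors, or both L981 and TCi-HCC981 (at most 0.13). Cyp2u1, an orphan cytochrome of fatty acid oxidation, had 0.0451 and 0.263 CPM in these 2 tumors, 1.34 to 5.11 CPM in the other 4, and 6.55 to 27.7 CPM in the livers.

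Female-biased genes moved in both directions. Of 19 tested of 28, 5 rose and 2 fell, where 6.77% of all genes rose and 3.91% fell. The median log2 fold change of the 19 was 0.75. Prom1, a membrane glycoprotein, was above all livers in every tumor, with 0.228 to 2.06 CPM in the livers and 6.08 to 39.5 CPM in the tumors (4.49 ± 0.57, adjusted p = 0.00089). Cyp2a4, a steroid hydroxylase with a near-identical neighbor, had 0.683 to 19.1 CPM in the livers, 16.5 and 28.1 CPM in the Ctnnb1-mutated tumors, and 2314 to 2773 CPM in the other 4 (8.15 ± 1.45 over all tumors, adjusted p = 0.00437). Nipal1, a magnesium transporter, rose by 3.67 ± 0.71 (log2, SE, adjusted p = 0.00677) and was higher in 5 of 6 mice. Hamp2 fell in all 6 mice (-2.63 ± 0.71, adjusted p = 0.0327), and Cyp2c69 fell by 4.82 on the log2 scale (SE 1.38, adjusted p = 0.0404). Neither call was stable. That of Hamp2 ended without L663, L992, T-HCC663, T-HCC941, or T-HCA992 (adjusted p at most 0.0783) and in the HCC alone (0.166). Cyp2c69 was at -1.89 (adjusted p = 0.434) in the block fit and at -2.54 (0.116) without L981, and was also lost without L941, L992, or any 1 of the 6 tumors (at most 0.0889) and in the HCC alone (0.125). In the HCC alone Cyp2a4 and Nipal1 were not called either (adjusted p = 0.0675 and 0.0813). L981, with the high Cux2, had 302 CPM of Cyp2c69 where the other livers had 0.193 to 44.7 CPM. It also had 32.4 CPM of A1bg against 0 to 3.73 CPM, and the low Slco1a1 given above. Whether these go with its high macrophage markers was not tested.

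**Figure D5:**
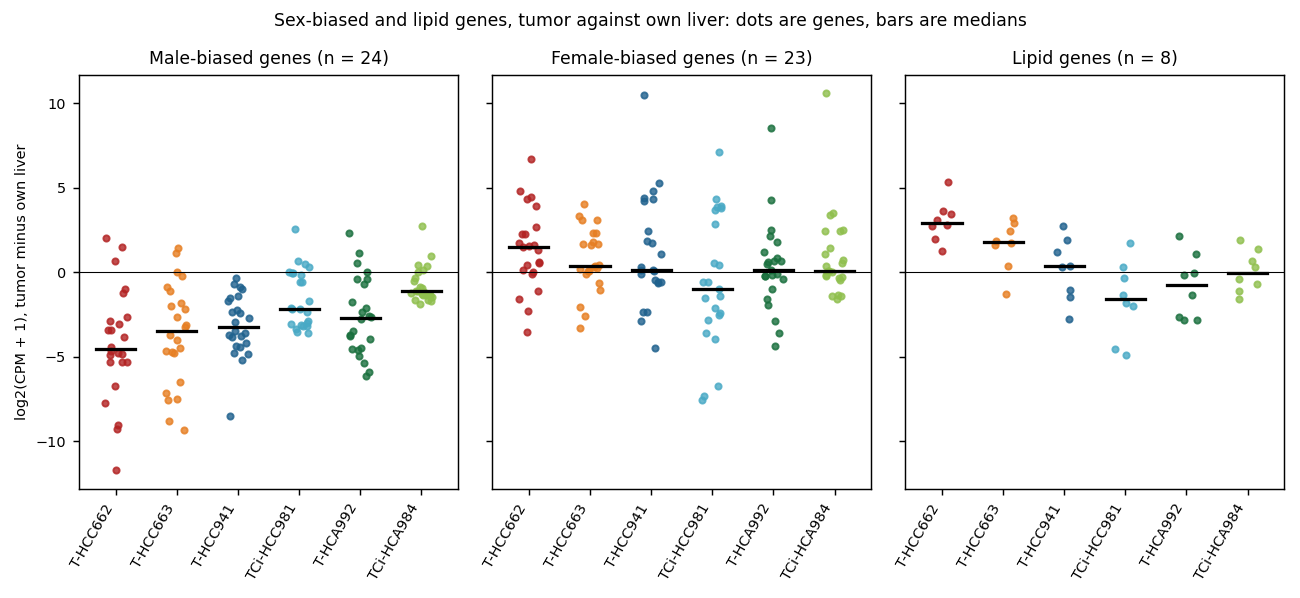
Difference of log2(CPM + 1) between each tumor and its own liver for the male-biased, female-biased, and lipid genes with a mean of at least 1 CPM, where each dot is a gene, colored by mouse, and the bar is the median. The medians of the male-biased genes run from -4.56 (T-HCC662) to -1.14 (TCi-HCA984), and those of the lipid genes from 2.92 (T-HCC662) to -1.60 (TCi-HCC981).

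Of 8 lipid genes known to rise in liver that lacks growth hormone receptor or Stat5, 1 rose in the comparison of all tumors and none fell. Of all genes tested there, 6.77% rose and 3.91% fell. The median log2 fold change of the 8 was 0.77. Fabp4, a fatty acid carrier, was the gene that rose. It was at 2.83 to 7.03 CPM in the livers and 13.7 to 39.6 CPM in the tumors (2.53 ± 0.31, adjusted p = 0.000835, edgeR), so that the groups did not overlap. By tumor the medians were 2.92 in T-HCC662 and 1.78 in T-HCC663, both Ctnnb1-mutated (log2(CPM + 1), tumor minus own liver). They were 0.34 in T-HCC941, -0.04 in TCi-HCA984, -0.75 in T-HCA992, and -1.60 in TCi-HCC981. The livers differed in this list, with summed levels of 76.2 (L662), 78.4 (L663), 91.6 (L941), 218 (L981), 258.5 (L992), and 419 CPM (L984). In the tumors of the same mice the sums were 817, 387, 110, 129, 233, and 398 CPM. By this sum TCi-HCA984 was above the Ctnnb1-mutated T-HCC663. Vldlr, a lipoprotein receptor, Plin4, which coats lipid droplets, and Mogat1, a triglyceride synthesis enzyme, were higher in the Ctnnb1-mutated than in the other tumors by 4.32 ± 0.82, 4.10 ± 0.89, and 5.74 ± 1.46 (log2, SE, adjusted p = 0.00861, 0.0156, and 0.0281). They were 3 of the 8 genes, where 6.76% of all genes were called higher. The fit with the mouse block called 1 of the 8 lipid genes between the classes (Plin4 of these 3), and that without L981 and TCi-HCC981 also 1 (Vldlr). Of 15182 genes these 2 fits called 441 and 977 in either direction. Without T-HCC662 none of the 3 was called, with Mogat1 at 1.89 (adjusted p = 0.505). Mogat1 was also lost without T-HCC941, T-HCA992, or TCi-HCC981 (at most 0.0824) and Plin4 without TCi-HCC981 (0.0533).

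Markers of other cells were set beside these values. Of the 9 hepatocyte markers tested in all tumors against livers, Cebpa and Tat fell and none rose, where 3.91% of all genes fell. Of the markers of cholangiocytes, endothelium, macrophages, stellate cells and fibroblasts, T and NK cells, B cells, neutrophils, and erythroid cells, only Pecam1 of endothelium passed (1.59 ± 0.38, adjusted p = 0.0179) over all tumors. In the 4 tumors without a Ctnnb1 mutation against livers, Pecam1 and Cdh5 of 7 endothelial markers, Acta2 and Col1a1 of 7 stellate and fibroblast markers, and Sox9 of 5 cholangiocyte markers were higher, and Marco of macrophages and Alas2 of erythroid cells were lower. Of the hepatocyte markers there, Alb was higher and Asgr1, Cebpa, and Tat were lower. Of all genes in that comparison, 11.3% were called higher and 11.5% lower. Between the classes, Pecam1, Kdr, Des, Pdgfrb, Sox9, Alb, and Serpina1a were lower and Alas2 was higher in the Ctnnb1-mutated tumors. The shares of all genes were 5.72% lower and 6.76% higher. In the Ctnnb1-mutated tumors against livers, Des, Lrat, Sox9, Serpina1a, and Tat were lower and none was higher. There 3.2% of all genes were called lower and 5% higher. The summed macrophage level was 123 to 1351 CPM in the livers and 80.2 to 955 CPM in the tumors. Macrophages, too, can make Igf1, and their share in its levels was not tested. The part of these markers in the falls of the members was not tested.

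The genes with the most similar profiles over the 12 libraries were found by Pearson correlation of log2(CPM + 1). Since 6 of these libraries are tumors and 6 are livers of the same mice, any gene that differs between the tissues contributes to such an r. Ghr was closest to Ndufa9, a subunit of mitochondrial complex I (r = 0.959), and to Igfals (r = 0.955). Igf1 was closest to Slc35e2 (r = 0.98) and Tmem86b (r = 0.969), and Igfals to Agbl3 (r = 0.967) and Repin1 (r = 0.961). The members that were not called had lower best values, with 0.891 for Stat5a (S100a10), 0.877 for Stat5b (H2-DMb2), 0.869 for Socs2 (Vps28), 0.82 for Cish (Rabl3), 0.894 for Bcl6 (Ngrn), and 0.891 for Cux2 (Sf3b1).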

How the data were processed

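The authors sequenced poly(A) RNA, aligned it with Subread to mm10 with mCherry added, and deposited raw counts per gene from featureCounts 1.6.4, without normalization. The annotation release and strandedness are not given in the sources used here. Groups came from the labels, and driver classes from the paper. The liver whose label number is not among the tumors' numbers was taken as L662 by elimination. Counts were scaled with edgeR 4.0.16 (TMM, R 4.3.3), kept by filterByExpr, and tested with the quasi-likelihood test and Benjamini-Hochberg adjustment at 0.05. Tumors were tested against livers with tissue as the factor, driver classes (with all livers as a class) in a model of all 12 libraries, and the genotype difference as an interaction. Differences from the own liver used log2(CPM + 1) and were not tested. Same-numbered samples come from 1 mouse, and their deviations from group means correlated with r of 0.00538 (T-HCC941), 0.0394 (T-HCC663), 0.169 (T-HCC662), 0.427 (T-HCA992), 0.542 (TCi-HCC981), and 0.542 (TCi-HCA984). For the first 3 of these the highest r with another liver was larger (0.0796, 0.218, and 0.197). The labels do not give the sequencing run.

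Named genes are the members, Jak2, Prlr, Igfbp1, Igfbp2, Igfbp3, Igf2, Egfr, and Onecut1, up to 3 of smallest p in each direction among the called genes of each other list, the 2 of highest correlation with each member, and Xist, Ddx3y, Axin2, and Glul as checks. Shc1, Stat3, Sh2b1, Igfbp4, Igfbp5, A1bg, and the cell type markers other than Pecam1 were named after their values were seen, as were the Slco1a1 levels of single livers. Values of some single genes of the lists are not reported here. The members and all gene lists were chosen with earlier results of these data known. The alternatives were DESeq2 1.42.0, RLE size factors, no filter, a block for the mouse, the 4 HCC alone, the tumors alone, each library left out, a pseudocount of 0.1 CPM, and the mean liver as reference; leaving out L981 and TCi-HCC981 was chosen after seeing the data. Gene positions are from GENCODE M21 (GRCm38), and promoter windows from RefSeq (GRCm38.p6). The script was tested on simulated data.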

Additional observations from a re-analysis of the deposited data

Results flagged for a closer look

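In the groups of 4 or 6 libraries, 4 of 36 sets of values of a member held a library far from the others by Dixon's criterion at 95%. Chance gives about 1 in 20 for independent, normally distributed values. The sets share libraries and CPM need not be normal, so this rate cannot be applied here. The flagged values were Socs2 in L941 among the p21+/Tert livers (58.9 CPM), Bcl6 in L663 among all livers (128 CPM), Cux2 in L981 among all livers (6.89 CPM), and Cux2 in T-HCC941 among the p21+/Tert tumors (6.86 CPM).

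Stat5a moved in opposite directions in the driver classes: the difference of log2(CPM + 1) from the own liver was above 0 in both Ctnnb1-mutated tumors (mean 0.98) and below 0 in the other 4. The adjusted p of the class difference was 0.0898, and 0.0349 with the mouse as a block. Igfals differed between the Ctnnb1-mutated and the other tumors by 1.24 (log2, adjusted p = 0.0465, edgeR). That call ended without T-HCC662 and in the fit with the mouse block. It held in 3 of the 12 fits with 1 library left out.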

How the results depend on the processing

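The number of genes called moved by more than 1.5 times under several settings. DESeq2 called 2407 genes in all tumors against livers (edgeR 1476), 3111 between Ctnnb1-mutated and other tumors (1895), 105 between Egfr- or Hras-mutated tumors and those with neither (0), 10 for the genotype difference (0), and 2126 in Ctnnb1-mutated tumors against livers (1245, of which 759 were higher; with DESeq2 1051 of 2126 were). The HCC alone gave 581 in all tumors against livers. Between Ctnnb1-mutated and other tumors the mouse as a replicate block gave 441, the tumors without livers 834, and leaving out L981 and TCi-HCC981 977; the last gave 1 between Egfr- or Hras-mutated tumors and those with neither. With 1 library left out, the counts ran from 830 to 1973 in all tumors against livers, 422 to 2124 between Ctnnb1-mutated and other tumors, 0 to 5 between Egfr- or Hras-mutated tumors and those with neither, 416 to 1324 in Ctnnb1-mutated and 1853 to 3608 in other tumors against livers.

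Of 877 values of the members recomputed in the 6 comparisons, 844 kept their direction or stayed uncalled, 20 lost the call, 13 gained it, and none reversed. The mouse block changed no call of a member beyond those of Stat5a and Igfals given above, and Ghr, Igf1, and Igfals were also called over all tumors in the block fit without L662 and T-HCC662. The count of members lower in the tumor than in the own liver stayed within 1.5 times of 41 under all 3 alternatives, and 10 of the 54 differences changed sign against the mean of the 6 livers. Depth limits Cux2, which had under 30 reads in 9 of 12 libraries, and Stc1.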
